A study of Nilaparvata lugens with 9 samples.

Results

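Sequences of bantam and of miR-14 were looked up in the miRNA table of short-winged (SW) female adults of the brown planthopper, *Nilaparvata lugens*. A sequence was taken when its name held bantam or when the number after miR- was exactly 14, and each distinct mature sequence was counted once. No name held bantam, so bantam is not analysed here. The 16 sequences found, of 759 distinct sequences in all, were tca-miR-14-3p and 15 variants of it, called isoforms, all named after the 3p arm of the miR-14 of the beetle *Tribolium castaneum* (tca). The libraries were made from whole bodies of untreated SW morphs on day 1 (1 d), day 3 (3 d) and day 5 (5 d) after emergence, with 3 libraries per phase and 9 in all. No other genotype or treatment was included. Each sample was made up of 30 insects of a field-derived colony reared on rice, so the values are averages over all tissues, and fewer cells with the miRNA cannot be told apart from less of it per cell. Whether the 3 libraries of a phase were separate pools of insects is not stated, so p-values measure only the spread between these libraries, which may be technical. The study's methods describe a small RNA library kit, whereas the sample labels describe a paired-end mRNA library. All listed sequences were between 18 and 26 nt long.

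In *Drosophila*, miR-14 is known as a suppressor of cell death and a regulator of fat metabolism, and it acts on the ecdysone receptor, through which the steroid hormone ecdysone sets moults and other developmental steps. The bantam miRNA of *Drosophila* drives tissue growth and represses the cell death gene *hid*. A miRNA is cut from a hairpin precursor with a 5p and a 3p arm, and it recognises its targets mainly through its seed, bases 2 to 8 from the 5′ end. A changed 5′ end or a changed base within the seed therefore alters which targets can pair, whereas a changed 3′ end leaves the seed as it was.

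The hairpin of tca-miR-14-3p was listed on scaffold NW_019106898.1, plus strand, start 240833, with a precursor of 69 nt and a predicted free energy of -27.6 kcal/mol. The gene annotation around it was not used here. The precursor is shown to place both arms, with capitals for the 5p sequence (bases 5 to 28) and for the 3p sequence (bases 45 to 66), which a loop of 16 nt separates.
miR-14 precursor: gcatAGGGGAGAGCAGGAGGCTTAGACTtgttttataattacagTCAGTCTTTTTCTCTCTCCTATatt

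The members that carried most reads, and the variant with a changed first base, kept the same seed. They are printed with bases 2 to 8 in capitals, because they differ at their ends and not in the seed.
tca-miR-14-3p: tCAGTCTTtttctctctcctat
tca-miR-14-3p_R-4: tCAGTCTTtttctctctc
tca-miR-14-3p_R+1_1ss22TC: tCAGTCTTtttctctctcctact
tca-miR-14-3p_R-2_1ss1TC: cCAGTCTTtttctctctcct

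In these names, R-4 stands for 4 bases missing at the 3′ end, R+1 for 1 base more there, and L for the same at the 5′ end. The part after ss gives a position and the base change relative to the named miRNA, and the changes were T22C and T1C in the sequences above, counted from 1 at the 5′ end of tca-miR-14-3p. The same seed was kept by 8 of the 16 members, which also included tca-miR-14-3p_R-3_1ss19CA, tca-miR-14-3p_R-2_1ss15TC, tca-miR-14-3p_R-2_1ss1TG and tca-miR-14-3p_2ss12CA21AG. The other 8 members had another seed, either through 1 changed base at positions 4 to 8 or through 4 or 5 bases missing at the 5′ end. Examples of each way are shown with their own bases 2 to 8 in capitals.
tca-miR-14-3p_R-2_1ss7TC: tCAGTCCTtttctctctcct
tca-miR-14-3p_R-2_1ss8TC: tCAGTCTCtttctctctcct
tca-miR-14-3p_R-2_1ss6CA: tCAGTATTtttctctctcct
tca-miR-14-3p_L-5R+1: cTTTTTCTctctcctatt

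The most read member, tca-miR-14-3p, held nearly all reads of the family, and its level did not pass the test between any of the 3 phases. It had 648710 of the 649821 reads of the 16 members (99.8%) and 3.35% of all reads in the table, and it ranked between 5 and 9 among all sequences of a library. The 1 d libraries held 52958, 27157 and 120131 raw reads of it, the 3 d libraries 39223, 80996 and 106546, and the 5 d libraries 64516, 91031 and 66152. Depth differed between libraries, from 972506 to 3184052 reads on the listed miRNAs, so levels were compared as CPM, a library's reads scaled to a common total, with TMM factors, which correct for library composition. On this scale tca-miR-14-3p had 19938, 33398 and 48300 CPM at 1 d, 25501, 41855 and 31984 CPM at 3 d, and 24312, 38024 and 40979 CPM at 5 d. The phases overlapped fully, and the lowest and the highest value of all 9 libraries were both at 1 d.

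The mean of tca-miR-14-3p was 33113 ± 8235 CPM at 3 d and 33879 ± 14187 CPM at 1 d (SD, n = 3 each). The log2 fold change of 3 d vs. 1 d was -0.03, with a standard error (SE) of 0.34 and a 95% interval from -0.80 to 0.74. At 5 d the mean was 34438 ± 8893 CPM (SD, n = 3), which gave a log2 fold change of 0.02 against 1 d (95% interval from -0.75 to 0.79) and of 0.06 against 3 d (95% interval from -0.71 to 0.83). Each difference was thus far smaller than the spread between the libraries of a phase. The adjusted p of edgeR's quasi-likelihood test (Benjamini-Hochberg, 341 sequences) was 1.00 for 3 d vs. 1 d, 0.986 for 5 d vs. 1 d and 0.992 for 5 d vs. 3 d, and exact permutation tests (2-sided, n = 3 each, smallest possible p = 0.1) gave 0.9, 1 and 1. At this spread, a change of up to 1.77-fold upward, or down to 0.573 of the earlier phase, lay within the intervals.

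**Figure D1:**
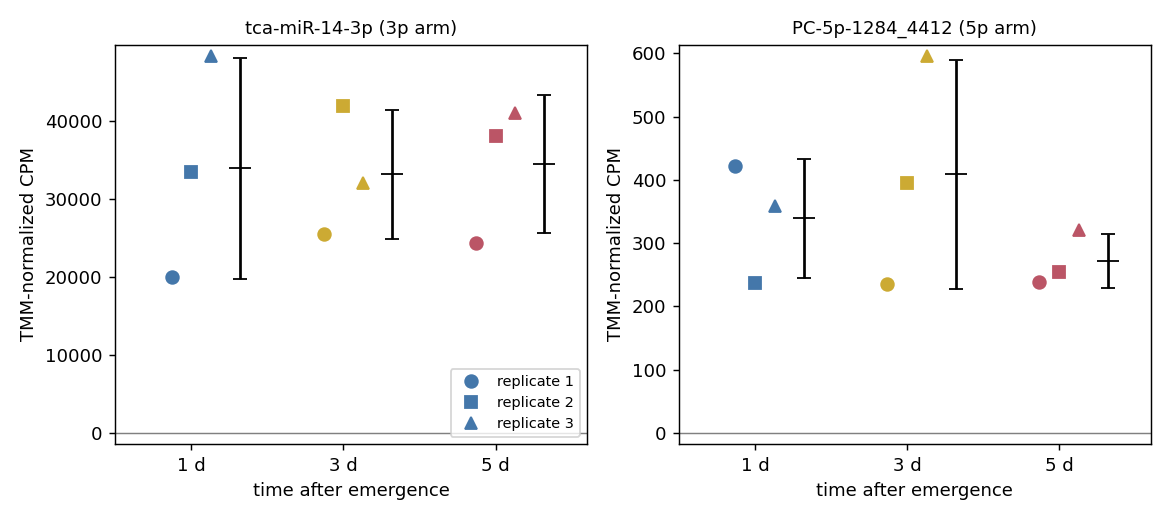
TMM-normalized CPM (y axis) of tca-miR-14-3p (left) and of the opposite arm PC-5p-1284_4412 (right) by phase, with 1 symbol per library and bars for mean and SD (n = 3). The phases overlap in both panels, and the 3p arm lies between 19938 and 48300 CPM while the 5p arm lies between 235 and 596 CPM.

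Of the 16 members, 3 passed the filter on low counts: tca-miR-14-3p, the shortened tca-miR-14-3p_R-4 and the lengthened tca-miR-14-3p_R+1_1ss22TC. The test called 0 of the 3 in 3 d vs. 1 d (0% of all tested sequences were called), 0 of the 3 in 5 d vs. 1 d (1.47% of all) and 0 of the 3 in 5 d vs. 3 d (0% of all). Across the 3 phases together it also called 0 of the 3 (1.17% of all). At an unadjusted p below 0.05 the count in edgeR was also 0 of 3 in every comparison, and DESeq2 called 0 of 3 in each.

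The 5p arm of the hairpin was listed as a predicted candidate (PC) under the name PC-5p-1284_4412. It is no member by its name, and is described because it shares the precursor.
PC-5p-1284_4412: aGGGGAGAgcaggaggcttagact
It had 422, 237 and 359 CPM at 1 d, 235, 395 and 596 CPM at 3 d, and 239, 255 and 321 CPM at 5 d. The 3p arm therefore exceeded the 5p arm in every library, with between 47.2 and 149 reads of the 3p arm for each read of the 5p arm. Its share of the reads of both arms was 2.07%, 0.706% and 0.739% at 1 d, 0.914%, 0.936% and 1.83% at 3 d, and 0.975%, 0.667% and 0.777% at 5 d. The highest shares were found in 1 d replicate 1 and 3 d replicate 3, and the phases overlapped. The mean level was 272 ± 43.2 CPM at 5 d and 409 ± 180 CPM at 3 d (SD, n = 3 each), with a log2 fold change of -0.59 (SE 0.39, adjusted p = 0.992 in edgeR, exact permutation p = 0.4). Against 1 d (340 ± 94.1 CPM) the log2 fold change was 0.27 at 3 d and -0.32 at 5 d, neither of which passed the test (adjusted p = 1.00 and 0.858 in edgeR). Across the 9 libraries, Pearson's r between log2(CPM + 1) of the arms was 0.09.

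**Figure D2:**
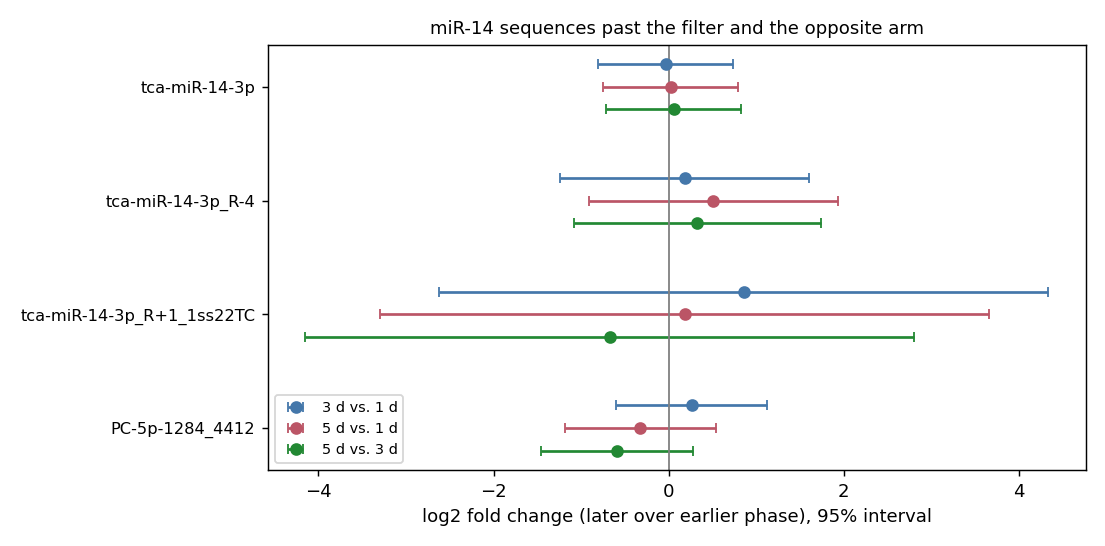
Log2 fold change of the later over the earlier phase (x axis) with its 95% interval from edgeR, for the 3 members past the filter and the opposite arm (y axis), colored by comparison. Every interval includes 0, and those of tca-miR-14-3p_R+1_1ss22TC are the widest, from -4.15 to 4.34.

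The length variants tca-miR-14-3p_R-4 (18 nt) and tca-miR-14-3p_R+1_1ss22TC (23 nt) held 80.6% of the 1111 reads of the 15 minor members, with 1 entry counted per sequence. With all entries of a sequence added up, they held 75.6% of 1704 reads. For tca-miR-14-3p_R-4 the levels were 8.85, 32.0 and 15.9 CPM at 1 d, 38.4, 11.9 and 13.96 CPM at 3 d, and 21.1, 33.0 and 25.7 CPM at 5 d. Its reads were split between 2 listed precursors, so that with both entries added up its levels lay between 17.7 and 76.7 CPM and its reads came to 788 in place of 394, against 501 reads of the lengthened variant at either counting. The order of the libraries is the same by both counts. Its highest levels were found in 3 d replicate 1, 5 d replicate 2 and 1 d replicate 2, that is, in 1 library of each phase. The mean was 26.6 ± 5.998 CPM at 5 d and 18.9 ± 11.9 CPM at 1 d (SD, n = 3 each), a log2 fold change of 0.51 (SE 0.63, 95% interval from -0.91 to 1.94, adjusted p = 0.858 in edgeR, exact permutation p = 0.4). The log2 fold change of this sequence was 0.18 for 3 d vs. 1 d (adjusted p = 1.00 in edgeR) and 0.33 for 5 d vs. 3 d (adjusted p = 0.992).

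The lengthened tca-miR-14-3p_R+1_1ss22TC, which was listed without a genome position, showed a different order of libraries. It had 12.05, 0 and 41.4 CPM at 1 d, 0, 58.9 and 40.2 CPM at 3 d, and 4.90, 15.0 and 42.7 CPM at 5 d. It was thus listed at 0 in 1 d replicate 2 and 3 d replicate 1, where tca-miR-14-3p_R-4 was high. These were also the libraries with the fewest reads, 972506 and 1316107, and with the largest share of reads on listed miRNAs of 18 to 20 nt, 2.47% and 1.68%, against between 0.503% and 1.13% in the other 7 libraries. Pearson's r over the 9 libraries between that share and log2(CPM + 1) was 0.71 for the shortened and -0.92 for the lengthened variant, both read from the same libraries that give the share. The part of depth and read length in these levels was not tested. The log2 fold changes of the lengthened variant were 0.86 for 3 d vs. 1 d (adjusted p = 1.00 in edgeR), 0.18 for 5 d vs. 1 d (adjusted p = 0.986) and -0.67 for 5 d vs. 3 d (adjusted p = 0.992), each with an SE of 1.55.

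**Figure D3:**
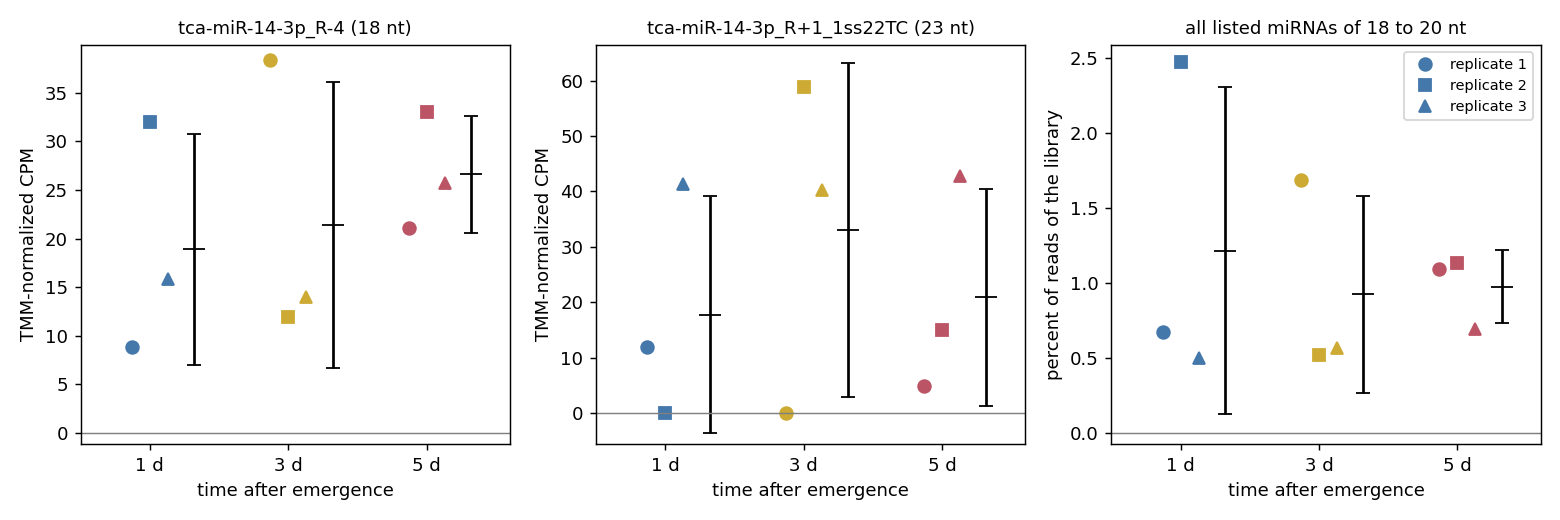
TMM-normalized CPM of tca-miR-14-3p_R-4 (left) and tca-miR-14-3p_R+1_1ss22TC (middle), and percent of a library's reads on listed miRNAs of 18 to 20 nt (right), by phase, with 1 symbol per library and bars for mean and SD (n = 3). The libraries 1 d replicate 2 and 3 d replicate 1 are at 32.0 and 38.4 CPM in the left panel, at 0 in the middle panel, and highest in the right panel, at 2.47% and 1.68%.

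The 13 other members were rare, with between 3 and 49 reads each over the 9 libraries and at most 23.5 in one. At the main setting, which counts 1 entry per sequence, they did not pass the filter and no test across all sequences was made for them. With all entries of a sequence added up, 7 of the 16 members passed the filter, and 0 were called. The table holds no value above 0 and below 2.5 reads, so a value of 0 may stand for a few reads that were not listed. Raw reads of sequences listed at 2 precursors were split by the authors, which gives values such as 3.5. With the entries of a sequence added up, 302 of the 3871 values above 0 were exactly 5 reads, and 102 were below 5. A value of 2.5 in a sequence listed at 2 precursors thus stands for 5 reads. For these reasons no fold changes are given for the rare members.

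tca-miR-14-3p_R-2_1ss1TC, the variant with C as its first base, had 0 reads in every 1 d library, 3.5, 0 and 3 reads in the 3 d libraries, and 7, 3.5 and 7.5 reads in the 5 d libraries. Every 5 d library was above every 1 d library, while 5 d and 3 d overlapped. In CPM the exact permutation p (2-sided, n = 3 each) was 0.1 for 5 d vs. 1 d, the smallest this design allows, 0.4 for 3 d vs. 1 d and 0.2 for 5 d vs. 3 d. This variant was picked because the study lists it among its differentially expressed miRNAs, from these same libraries. Its p-values are therefore no independent support for a change. When the reads of its 2 entries were added up, it passed the filter. As it was listed at 0 in every 1 d library, it passed only through the later phases. In edgeR it then had an unadjusted p of 0.0188 and an adjusted p of 0.315 for 5 d vs. 1 d. For 3 d vs. 1 d the unadjusted p in edgeR was 0.0481 and the adjusted p 0.561. Because of that selection, these p-values are no support for a change either. Counted once and with no filter applied, its adjusted p in edgeR was 0.625 for 5 d vs. 1 d, so it was called in neither way. tca-miR-14-3p_R-3_1ss19CA, which lacks 3 bases at the 3′ end, was the only other rare member whose 5 d libraries were all above the 1 d libraries in CPM, with 0, 0 and 3 reads at 1 d, 8, 0 and 5.5 at 3 d, and 4.5, 23.5 and 4.5 at 5 d. These are 2 of the 13 rare members, against 6 (1.44%) of the 418 sequences that did not pass the filter. The 418 include the 13 rare members, and 1 of the 2 was picked from the study's list, so nothing is concluded from the difference.

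Of the rare members, 6 had reads at 5 d and in no other phase, 1 had reads only at 3 d and 0 had reads only at 1 d. Among the 418 sequences that did not pass the filter, 22.2% had reads at 5 d alone, 17.7% at 3 d alone and 9.09% at 1 d alone, which is the same order of phases as among the members. Of all 759 sequences, 12.3% had reads at 5 d alone. The members read at 5 d alone were tca-miR-14-3p_R-2_1ss8TC (4.5 and 8.5 reads) and tca-miR-14-3p_2ss12CA21AG (4 and 10 reads) in replicates 2 and 3, tca-miR-14-3p_R-2_1ss4GT (3.5 reads) in replicate 2, and 3 sequences in replicate 3 only. Without 5 d replicate 3 the count of such members was 3, and without any other single library it was between 5 and 7. The 3 sequences of that replicate were tca-miR-14-3p_R-2_1ss6CA with 10.5 reads, tca-miR-14-3p_R-2_1ss5TA with 7 reads and tca-miR-14-3p_R-2_1ss8TA with 4.5 reads. All of these but tca-miR-14-3p_2ss12CA21AG had a changed base within the seed.

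Reads in all 3 phases were found for 3 rare members, of which 1 was tca-miR-14-3p_R-3_1ss19CA. Of the others, tca-miR-14-3p_R-2_1ss7TC, with a changed seed, had between 2.5 and 6.5 reads in 8 libraries and 0 in 5 d replicate 3. tca-miR-14-3p_L-5R+1, whose 5′ end lacks 5 bases, had between 2.5 and 10 reads in 7 libraries. tca-miR-14-3p_R-2_1ss15TC was read in 3 d replicate 1 and 5 d replicates 1 and 2, tca-miR-14-3p_R-2_1ss1TG in 1 d replicate 2 and 5 d replicates 1 and 3, and tca-miR-14-3p_L-4R+1 in 3 d replicate 1 alone, with between 2.5 and 4.5 reads in a library.

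**Figure D4:**
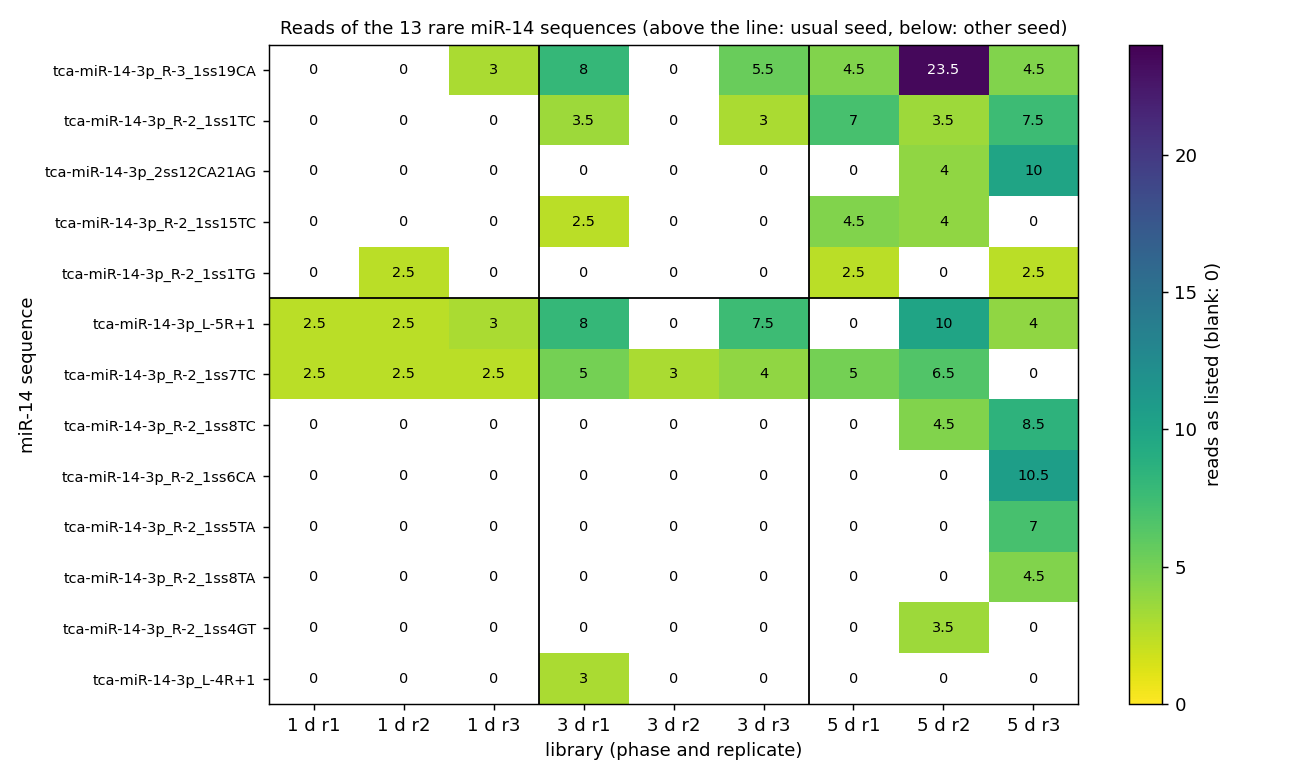
Reads as listed of the 13 rare miR-14 sequences (y axis) in each library (x axis, r for replicate). Members that keep the usual seed are above the horizontal line and members with another seed below it. Cells without color are at 0. Reads are found in most cells of 5 d replicates 2 and 3, with up to 23.5 in a cell, while only 2 to 3 rare sequences were read in each 1 d library.

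Counted over all minor members, the number with reads in a library was 4, 4 and 5 of 15 at 1 d, 7, 3 and 6 at 3 d, and 7, 10 and 11 at 5 d. The 5 d libraries were thus all above the 1 d libraries. Over all 759 sequences the number with reads was 436, 328 and 443 at 1 d, 388, 441 and 495 at 3 d, and 461, 443 and 436 at 5 d, where the phases overlapped. As 13 of the 15 minor members did not pass the filter, a nearer comparison is with other such sequences. Of these, 110, 55 and 120 had reads at 1 d, 78, 132 and 164 at 3 d, and 140, 115 and 119 at 5 d. Their mean was also higher at 5 d (124.7) than at 1 d (95), but 5 d replicates 2 and 3 were below 1 d replicate 3. Minor members made up 0.114%, 0.123% and 0.126% of the miR-14 reads at 1 d, 0.226%, 0.173% and 0.188% at 3 d, and 0.143%, 0.191% and 0.256% at 5 d. All 6 later libraries were above the 3 libraries of 1 d, by a margin that was small in 5 d replicate 1. With the reads of both entries of a sequence added up, the means were 0.193% at 1 d, 0.300% at 3 d and 0.332% at 5 d, against 0.121%, 0.196% and 0.197% with each counted once. By that sum the 5 d libraries were still all above the 1 d libraries, but 3 d replicate 2 (0.205%) was below 1 d replicate 2 (0.246%). These shares were compared without a test, since they are sums over the members. Members with another seed had 110 reads in all, or between 0.00370% and 0.0520% of the miR-14 reads of a library. Of these 8 members 7 were listed at 2 precursors, and with both entries added up they had 217 reads, or between 0.00739% and 0.104% of the miR-14 reads of a library.

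For none of the 14 minor members with a position was the miR-14 hairpin the listed precursor. Of the members only tca-miR-14-3p was listed at that position, together with PC-5p-1284_4412 and PC-3p-295018_14, a PC sequence of 26 nt that adds 4 bases to the 3′ end of tca-miR-14-3p and had 5, 9 and 5 reads, in replicate 3 of 1 d, 3 d and 5 d. tca-miR-14-3p_R+1_1ss22TC, with 501 of the 1111 minor reads (of 1704 with all entries added up), was listed on the 3p side of a hairpin of 83 nt with a free energy of -30.2 kcal/mol, without a position or precursor sequence. The 14 minor members with a position had 26 entries on other scaffolds, with free energies between -21.2 and 2.2 kcal/mol and a median of -6.3 kcal/mol. The study's criterion for a miRNA hairpin was a limit of -15 kcal/mol, and 18 of the 26 entries were above it. In 22 of the 26 entries the listed precursor differed from the mature sequence by 1 base at the site. For tca-miR-14-3p_R-2_1ss1TC the difference was T9C (the mature base first, position from its 5′ end), and its first listed precursor, on scaffold NW_019105898.1, plus strand, start 539560, with a free energy of 1 kcal/mol, is shown with the matching stretch in capitals.
listed precursor of tca-miR-14-3p_R-2_1ss1TC: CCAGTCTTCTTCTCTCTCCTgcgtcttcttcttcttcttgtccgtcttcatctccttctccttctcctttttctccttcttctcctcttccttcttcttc

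Letter for letter, the miR-14 precursor held 2 of the 16 members, tca-miR-14-3p and tca-miR-14-3p_R-4. tca-miR-14-3p_R-4 was nevertheless listed at 2 other scaffolds, each with a free energy of -19.2 kcal/mol. Of the 16 members, 9 were 20 nt long, and all 9 carried 1 changed base, so that no 20-nt member without a change was listed. Whether the rare members were transcribed, and from which locus, cannot be told from the table.

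The sequences whose levels most resembled tca-miR-14-3p over the 9 libraries, by Pearson's r of log2(CPM + 1), were PC-5p-7884_850 (r = 0.87, mean of 87.7 CPM), PC-3p-12960_569 (r = 0.82, 40.6 CPM) and pca-miR-71-3p (r = 0.82, 783 CPM). pca-miR-71-3p had 506, 644 and 969 CPM at 1 d, 757, 976 and 779 CPM at 3 d, and 741, 893 and 782 CPM at 5 d. As with tca-miR-14-3p, its lowest level was in 1 d replicate 1. They were the 3 highest of 338 sequences compared, over libraries that share their depth and composition.

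Other miRNAs linked to ecdysone and growth, of let-7, miR-100, miR-125, miR-34, miR-8, miR-278, miR-281, miR-275 and miR-252, had 32 listed sequences, of which 25 were tested. The edgeR test called 1 of the 25 as higher and 0 as lower for 5 d vs. 1 d, where it called 1.47% of all tested sequences, and 0 of the 25 between the other phases, where it called 0% of all. The median log2 fold change of the 25 was -0.02 for 3 d vs. 1 d, -0.19 for 5 d vs. 1 d and 0.01 for 5 d vs. 3 d, beside 0.06, 0.05 and -0.04 for all 341 tested sequences. The sequence called was tca-miR-34-5p_R+3, of a miRNA that *Drosophila* uses in ageing and neural maintenance and that ecdysone represses there. It had 11579, 8107 and 8084 CPM at 5 d, against 2699, 2332 and 2941 CPM at 1 d, a log2 fold change of 1.80 (SE 0.23, adjusted p = 0.00826 in edgeR). Of the miRNAs linked to cell death in *Drosophila*, miR-2 and miR-13 were listed, and 0 of their 5 tested sequences were called in any comparison. With 0% to 1.47% of all tested sequences called, a count of 0 among 5 says nothing particular about them. They had median log2 fold changes of -0.02 for 3 d vs. 1 d, 0.15 for 5 d vs. 1 d and 0.05 for 5 d vs. 3 d.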

How the data were processed

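Small RNA of SW female adults was sequenced in 9 libraries, 3 per phase. The authors' pipeline, ACGT101-miR, discarded reads of other RNA classes and of repeats before miRBase and genome searches that tolerated changed ends and 1 mismatch. The sources used here do not give the genome build. The raw columns are estimated counts that the authors deposited without normalization, and the deposited normalized signal is the raw count multiplied by 1 factor per library. Precursor free energies (a score, in kcal/mol), GC percent and lengths were also deposited, and the energies and lengths were used as listed.

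Entries of 1 mature sequence were counted once (759 of 905 entries), and counts were rounded. edgeR 4.0.16 (quasi-likelihood F-test, legacy form, TMM, default low-count filter) was fitted to all 9 libraries under R 4.3.3, and calls needed an adjusted p (Benjamini-Hochberg) below 0.05. The SE is the absolute log2 fold change divided by the square root of F. The fit was also run on simulated data, with changes larger than those within the intervals of tca-miR-14-3p. That run does not bear on smaller changes. Seeds, shares and precursor matches were computed with scipy 1.17.1, numpy 2.4.6 and pandas 2.3.3 under Python 3.11.15. Full statistics are given for the members past the filter, for tca-miR-14-3p_R-2_1ss1TC and for the opposite arm, which was added after its values had been seen. Alternatives were DESeq2 1.42.0, limma 3.58.1, other scalings and filters, isoforms summed, a block for the replicate number and each library left out. Summing the entries of a sequence was added after seeing the data. The members and lists were chosen with earlier results of these data known. Reads carry no molecular identifiers, so copies from amplification cannot be told apart, and the spread of low counts is not counting error alone.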

Additional observations from a re-analysis of the deposited data

How the results depend on the processing

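Under every alternative tried, 0 members were called in each comparison. Among these were DESeq2, limma, other scalings, no filter, a filter of 10 CPM, isoforms summed, entries summed and each library left out. DESeq2 gave an adjusted p to 3 members, the fit with entries summed to 7 and the fit with no filter to 16. At the main setting only 0% to 1.47% of all tested sequences were called, so a count of 0 says nothing particular about the members. Deviations from the phase means correlated between -0.39 and 0.42 for same-numbered libraries, and between -0.51 and 0.50 for differently numbered ones. These ranges do not settle whether replicate numbers pair the libraries. With a replicate block the log2 fold change of tca-miR-14-3p in 3 d vs. 1 d was 0.029, that of tca-miR-14-3p_R+1_1ss22TC in 5 d vs. 1 d was -0.23, and 0 members were called. The sign of tca-miR-14-3p in 3 d vs. 1 d, -0.03 at the main setting, also turned with library totals (0.20), without the filter (0.047) and with limma (0.0045), and that of tca-miR-14-3p_R+1_1ss22TC in 5 d vs. 3 d turned with limma (0.63), with no call in any.

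With each library left out in turn, the log2 fold change of tca-miR-14-3p ranged from -0.38 to 0.17 for 3 d vs. 1 d, from -0.26 to 0.25 for 5 d vs. 1 d, and from -0.095 to 0.27 for 5 d vs. 3 d. That of tca-miR-14-3p_R-4 ranged from -0.55 to 0.77 for 3 d vs. 1 d, from 0.14 to 1.08 for 5 d vs. 1 d, and from 0.019 (without 3 d replicate 2) to 1.04 (without 3 d replicate 1) for 5 d vs. 3 d. For tca-miR-14-3p_R+1_1ss22TC the range was from 0.21 (without 3 d replicate 2) to 2.30 (without 1 d replicate 3) for 3 d vs. 1 d, from -0.89 to 1.66 for 5 d vs. 1 d and from -1.73 to 0.042 for 5 d vs. 3 d, and for PC-5p-1284_4412 it was from -0.12 to 0.55 for 3 d vs. 1 d. The number of members read at 5 d alone ranged from 3 to 7. With the entries of a sequence summed, minor members made up 0.193% of miR-14 reads at 1 d, 0.300% at 3 d and 0.332% at 5 d. The causes were not tested. The rare members have too few reads, and too many values of 0 that may hide a few reads, for a change between phases to be measured.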
